A study of Oryza sativa Indica Group with 9 samples.

Results

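In unheated leaves of rice seedlings, 326 miRNA cleavage sites carried at least 1 degradome read. These sites are the pairs of a miRNA family, or a new miRNA candidate, and a target locus that the authors listed and that had a read in the degradome library taken at 0 h of heat. Where a family and a locus were listed several times (several family members, transcript models or positions), the entry with the most reads was kept. In this way 990 of 1429 listed entries became 326 sites, out of 557 pairs listed in any of the 3 degradome libraries. The sites belong to 314 loci. They are assigned to 71 named families (295 sites) and 17 new candidates (31 sites).

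The series compared leaves of HT54, a rice breeding line of the Indica group that the labels call heat tolerant, after 0, 12 and 24 h at 45 °C. Seedlings were at the three-leaf stage and had grown at 25 °C with 13 h of light. The 0 h group, which had no heat treatment, has 1 degradome library of 12554074 raw reads, 80.6% of them mapped, and 2 small RNA libraries (replicates 1 and 3, prepared from RNA of 15 to 30 nt). The submitters left out 1 small RNA library at each time point as unsuitable. The 12 h and 24 h degradome libraries (11033581 and 12960708 raw reads) are used below only to set the same sites side by side. With 1 degradome library at 0 h there is no replicate, so no test between conditions was made, and each interval given covers counting error only. All samples are of HT54, and the tables used hold no mRNA levels, so the leaf label was not checked against marker genes.

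A plant miRNA guides an Argonaute protein to a transcript that it pairs with along nearly its whole length. Argonaute then cuts the transcript opposite the middle of the miRNA, between the bases that pair with miRNA positions 10 and 11. The downstream fragment keeps a 5′ phosphate and its poly(A) tail, and a degradome library sequences the 5′ ends of such fragments, so a cleaved site appears as a stack of reads that start at the same base. In leaves, conserved families of this kind act mostly on transcription factors of development, on auxin signalling and on copper proteins. The site reads therefore count cut ends and not miRNA, and they depend on how much of the transcript is made and how long the cut piece lasts.

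The sequences below belong to named families with most site reads, to the superoxide dismutase site of miR398, to sequences that share a seed, and to the new candidate with most site reads. The capitals mark the seed, bases 2 to 8 counted from the 5′ end, and T stands for U as in the deposited table.
osa-miR408-3p: cTGCACTGcctcttccctggc
osa-miR528-5p: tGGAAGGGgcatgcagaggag
osa-miR398b: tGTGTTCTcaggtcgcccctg
osa-miR160a-5p: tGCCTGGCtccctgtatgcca
osa-miR166m_R-1: tCGGACCAggcttcattccc
osa-miR171a_1ss12CT: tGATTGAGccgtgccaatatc
osa-miR169e_R-2: tAGCCAAGgatgacttgcc
osa-miR169n: tAGCCAAGaatgacttgccta
osa-MIR1430-p5: tAGCCAAGaatggcttgcctatc
osa-miR396d: tCCACAGGctttcttgaacgg
osa-miR396e-5p: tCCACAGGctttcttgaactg
PC-5p-111336_20: gAAATAGAaagaatagaaaat
Suffixes such as R-2 or 1ss12CT are the authors' and mark trimmed bases or substitutions against the database entry. The 3 sequences that start with the seed AGCCAAG carry different family numbers (miR169 and miR1430). The sequences osa-miR396d and osa-miR396e-5p share the seed CCACAGG and differ outside it. No source used here names the build of the deposited precursor coordinates. In them osa-miR408-3p lies at chr1:12301661-12301845 on the plus strand, osa-miR528-5p at chr3:1667328-1667415 on the plus strand and osa-miR398b at chr7:14598617-14598704 on the minus strand. Several others have more than 1 listed position, 4 for osa-miR160a-5p and 6 for osa-miR171a_1ss12CT. No transcript sequence was given with the tables, so the target sites themselves are named by locus and position only. A locus name such as LOC_Os08g37670 holds the chromosome in its first digits, here chromosome 8, and the protein names are those of the deposited annotation, mostly of Arabidopsis homologs.

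The reads listed at the 326 sites sum to 5784. This sum, on which the shares below rest, counts a read again wherever several sites list it. The authors' divided reads of the same entries sum to 3891, or 0.0310% of the raw reads of the library, which leaves out the parts given to other transcript models. The reads were very unevenly spread. The median site had 2 reads, 158 sites (48.5%) had a single read, 43 had at least 10 and 12 had at least 100. The 10 sites with most reads held 4001 reads, or 69.2% of all site reads. They were the site of miR408 in a cupredoxin gene, 3 sites of miR160 in auxin response factor genes, the miR528 site in another cupredoxin gene, 2 sites of miR169, and 3 of 4 tied sites of a new candidate that share their reads. At 147 sites the reads were divided by the authors among several transcripts, and at 90 of these the parts add up to all reads of the site within the same locus, so that they were divided among models of 1 gene. At the other 57 they were shared with other loci or models not listed. Counted along the target from the end of the listed pairing range, the cut lay opposite miRNA base 10 in 279 sites. It lay opposite base 9 in 27 and opposite base 11 in 20. Gaps in the pairing were not followed in this count, so bases 9 and 11 need not be other cut positions.

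The deposited category ranks a site among all read positions of its transcript. In tables of this kind, category 0 is a position that alone holds the highest signal of the transcript, category 1 shares the highest signal, category 2 lies above the median, category 3 at or below it, and category 4 is a position with 1 read. These meanings are common usage, and of them only that of category 4 was checked in the tables, where all 158 such sites had 1 read. By this measure 47 sites, or 14.4% (exact binomial 95% interval 10.8 to 18.7%), were in category 0. They held 4125 reads, 71.3% of all site reads, with a median of 11 and a range from 2 to 1032. Category 2 had 105 sites with 1418 reads and a median of 3, and category 4 had 158 sites with 1 read each. Categories 1 and 3 were small, with 9 and 7 sites. Since the category is made from the reads, more reads in category 0 than in category 4 are fixed in part by construction. Counted along the target as above, 46 of the 47 sites in category 0 had the cut opposite base 10, 1 opposite base 11 and 0 opposite base 9. Among all 326 sites, 279 had it opposite base 10. Every listed site lies at bases 9 to 11, so the cut position adds no independent support for category 0. A deposited site p-value under 0.05 went with all 47 sites of category 0 and 6 of category 1, and with none of the 270 sites in categories 2 to 4.

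**Figure D1:**
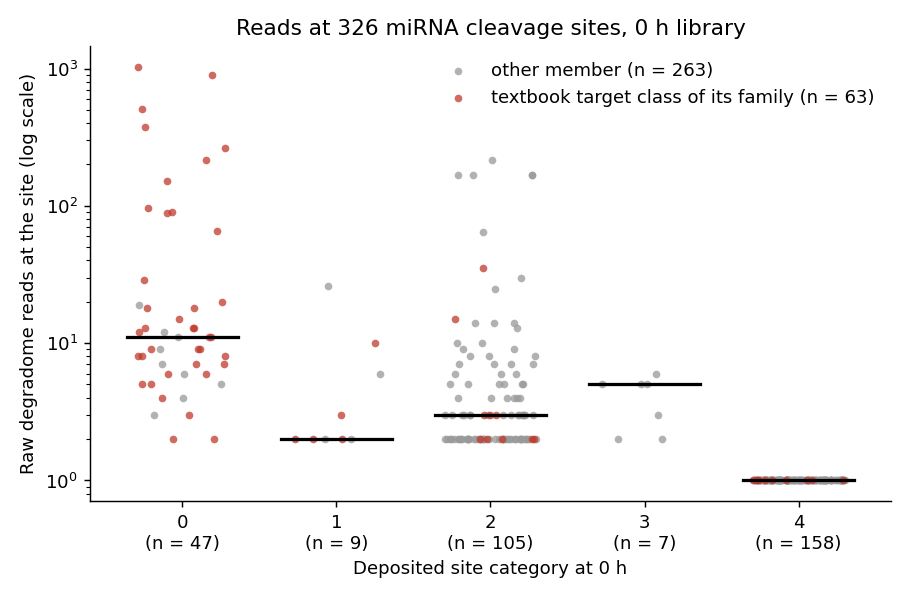
Raw degradome reads at each of the 326 sites (log scale) by deposited category at 0 h, with the median of each category as a bar. Points in red are sites whose annotation names the target class known for the family. Category 0 (47 sites) spans 2 to 1032 reads, and the 158 sites of category 4 lie at 1 read.

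The alignment score is the authors' penalty for mismatches between miRNA and site, with 0 for the closest match and 4 as the highest value listed. Where entries of a site tied on reads and category, the one with the lowest score was kept. A more abundant sequence can have a higher score there, such as 2 instead of 1 at the miR160 site in LOC_Os06g47150. Families with many listed sequences can thus reach lower scores by this rule. By the kept scores, the share of sites in category 0 was highest at low scores. Of 44 sites with a score from 0 to 1.5, 25 were in category 0 (56.8%, interval 41.0 to 71.7%), against 16 of 82 with a score of 2 to 3 (19.5%, 11.6 to 29.7%) and 6 of 200 with a score of 3.5 or 4 (3%, 1.11 to 6.42%). The intervals of the 3 classes do not overlap, but they treat sites as independent. Sites of a family are not, so the intervals can be too narrow and are no test between the classes. A perfect score did not go with the highest read counts. The 16 sites with score 0 had 1 to 18 reads, 10 of them in category 0, among them the growth-regulating factor sites of miR396, the squamosa promoter-binding protein sites of miR156 and the MADS-box sites of miR444. The site with most reads, that of miR408, had a score of 3.

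**Figure D2:**
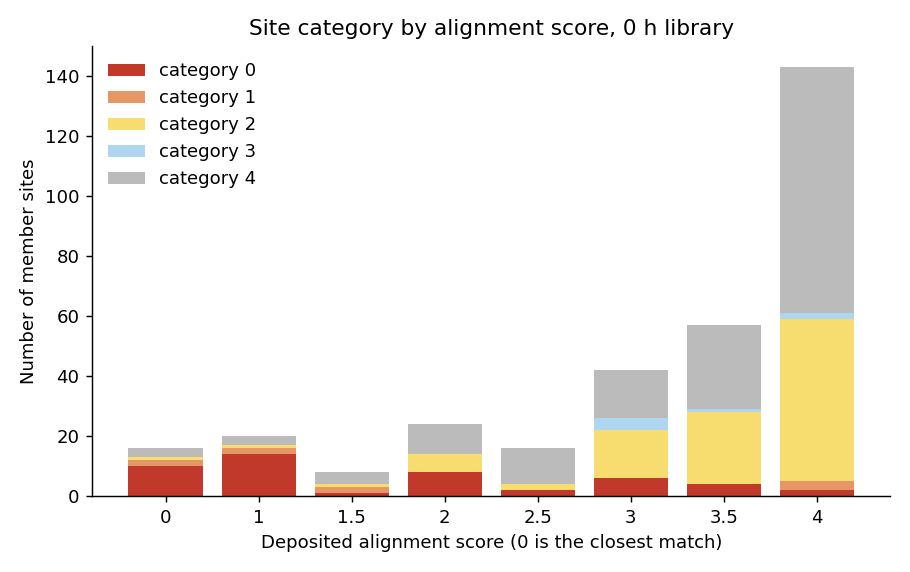
Number of sites by deposited alignment score (0 is the closest match), stacked by category at 0 h. Category 0 makes up 10 of 16 sites at score 0, while most of the 200 sites at scores 3.5 and 4 are in categories 2 and 4.

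A list of families was chosen as well known, and 127 of the 326 sites belonged to 26 families on it. It covers families of development, auxin, nutrients, copper, MADS-box and nuclear factor Y genes. Families of small RNA machinery, phased RNA and rice or grasses are also on it, and miR394 is not. The 26 families held 45 of the 47 sites in category 0 and 4622 of the 5784 reads (79.9%). Shares inside and outside the list depend on this choice. A target class known from other work exists for 124 of the 127 sites, and the deposited annotation named that class at 63 of them (50.8%). The 63 sites had a median of 7 reads and a median kept score of 1.5, and 38 were in category 0 (60.3%, interval 47.2 to 72.4%). The other 61 sites of the same families had a median of 2 reads and a median kept score of 4. Of these 61, 7 were in category 0 (11.5%, 4.74 to 22.2%), although 20 of the 61 had no annotation to compare. Among the remaining 202 sites 2 were in category 0 (0.990%, 0.120 to 3.53%). The match was made by keywords, and 1 of the 63 was a chance match of letters, the site of osa-MIR529b-p3 in LOC_Os01g34190, a G-patch protein with 1 read. The keywords also missed 4 sites whose annotation names a known target under another word, 3 of them in category 0: LOC_Os10g35436 and LOC_Os10g35240 of miR1425, LOC_Os06g06050 of miR528 and, in category 2, LOC_Os08g04310 of miR528. With keywords reviewed after the values were seen, 41 of 66 sites in the known class were in category 0 (62.1%, 49.3 to 73.8%), against 4 of the other 58 (6.90%, 1.91 to 16.7%).

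Copper proteins gave the single largest stack of cut ends. Plants under copper shortage lower several copper proteins through miR397, miR398, miR408 and miR528. These 4 families had 13 sites, 8 of them in category 0, and 1626 reads, 28.1% of all site reads. osa-miR408-3p at LOC_Os08g37670, a cupredoxin, which is a small copper protein of electron transfer, was cut at transcript position 668 with 1032 reads (exact Poisson 95% interval 970.0 to 1097), or 82.2 RPM (reads per 1000000 raw reads of the library). The other listed target of the family, the plantacyanin gene LOC_Os02g49850, had 2 reads at the same score of 3. So nearly all reads of the family lay at 1 of its 2 loci.

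osa-miR528-5p, a guide strand known from monocots, cut another cupredoxin gene, LOC_Os07g38290, with 505 reads (462 to 551) or 40.2 RPM. Its 7 other sites had 1 to 9 reads. Among them were LOC_Os06g37150, annotated as L-ascorbate oxidase, a copper enzyme of the cell wall, with 7 reads in category 0, and LOC_Os08g04310, annotated as uclacyanin 1, with 9 reads in category 2. Another pair in category 0 had annotations that name no copper protein. LOC_Os06g06050, a leucine-rich repeat protein of the RNI-like superfamily with the deposited symbol MAX2, had 9 reads. It falls in the known target class under the reviewed keywords. LOC_Os01g66170, of the SNARE-associated Golgi protein family, had 7 and does not. The superoxide dismutase gene LOC_Os07g46990, which encodes a copper and zinc enzyme against superoxide, had 29 reads (19.4 to 41.6) at its miR398b site, in category 0. The laccase 17 genes LOC_Os05g38410 and LOC_Os05g38420, whose copper enzymes take part in lignin formation, each listed the same 8 reads for osa-MIR397a-p5.

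Auxin signalling held a similar share, 1659 reads or 28.7%, and nearly all of it was miR160. Auxin response factors (ARFs) bind the promoters of auxin-responsive genes, and those cut by miR160 act mostly as repressors. The 5 sites of miR160 all lay in genes annotated as ARF16 and all had a score of 1, yet their reads ranged 446-fold. LOC_Os06g47150 had 892 reads (834 to 953), or 71.1 RPM, LOC_Os10g33940 had 376, LOC_Os02g41800 had 263 and LOC_Os04g43910 had 96, all in category 0. LOC_Os04g59430 had 2 reads in category 1. Each of the 4 transcript models of LOC_Os06g47150 listed the 892 reads, 223 per model after division, and these add up to 892 again, so none of them were shared with another locus. The order of the miR160 loci is thus one of loci and not of single models.

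The auxin receptors, F-box proteins that bind auxin and mark repressors for destruction, are the known targets of miR393. osa-miR393a had 6 reads at LOC_Os04g32460 (auxin signaling F-box 2) and 5 at LOC_Os05g05800 (an F-box protein of the RNI-like superfamily), both in category 0 with a score of 1. A locus without annotation, LOC_Os03g36080, had more reads, 13, but a score of 3.5 and category 2. miR167, whose known targets are activating ARFs, had 4 sites with 1 read each, 1 of them in the ARF6 gene LOC_Os04g57610. The osa-miR390-3p_L+3 site, of the opposite strand to the one that starts phased RNA from TAS3, had 2 reads in a ribosomal protein gene.

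**Figure D3:**
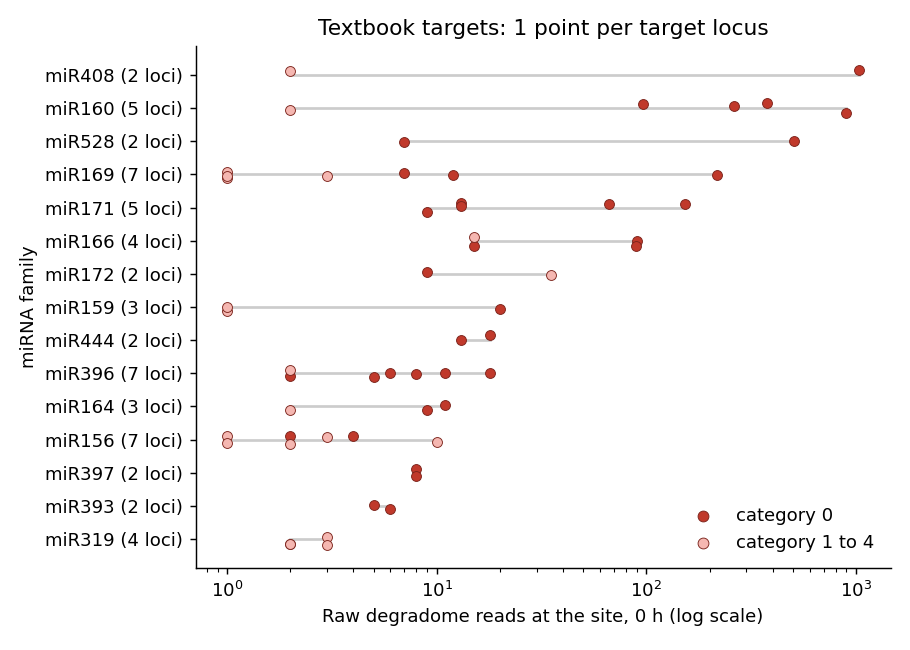
Raw 0 h reads (log scale) at sites whose annotation names the known target class, with 1 point per locus and 1 line per family. Loci of a family differ from 2 to 1032 reads in miR408 and from 2 to 892 in miR160, and lie close together in miR444 (13 and 18) and miR393 (5 and 6).

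Families of leaf and meristem development (miR159, miR164, miR166, miR171, miR319 and miR396) had the most sites, 40, of which 18 were in category 0 and 26 in the known target class. They held 596 reads, 10.3% of all. The GRAS transcription factors cut by miR171 keep meristems undifferentiated in other plants. All 5 GRAS loci were in category 0, with 152 reads (129 to 178) at LOC_Os04g46860, 66 at LOC_Os06g01620, 13 each at LOC_Os02g44360 and LOC_Os10g40390, and 9 at LOC_Os02g44370. The class III homeodomain-leucine zipper genes cut by miR166 set the upper side of the leaf. LOC_Os10g33960 had 90 reads (72.4 to 111) and LOC_Os03g01890 had 89, while LOC_Os12g41860 and LOC_Os03g43930 listed 15 each. The first pair has the same divided value on each model of both loci. Summed over models, LOC_Os10g33960 keeps 60.7 reads (4 models) and LOC_Os03g01890 30.3 (2 models). The second pair shares its 15 reads in the same way, with 5 left to LOC_Os12g41860.

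Growth-regulating factors (GRFs), cut by miR396, promote cell division in young leaves. The 7 GRF loci had few reads, and 6 of 7 were in category 0. Reads were 18 at LOC_Os02g53690, 11 at LOC_Os06g02560, 8 at LOC_Os03g47140, 6 at LOC_Os02g45570, 5 at LOC_Os04g51190 and 2 each at LOC_Os03g51970 and LOC_Os02g47280. The sequence kept for most of them, osa-miR396d, was close to absent, with 0.5 and 1 reads in the small RNA libraries, and the same positions were also listed for osa-miR396e-5p, at 43645 and 59441 CPM (counts per 1000000 listed miRNA reads, replicates 1 and 3) with a score of 1. Both share the seed CCACAGG.

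The gibberellin-response factor gene MYB33 at LOC_Os01g59660, a target of miR159, had 20 reads in category 0, and 2 other MYB loci had 1 read each. NAC1 genes, boundary and root factors cut by miR164, had 11 reads at LOC_Os12g41680 and 9 at LOC_Os06g46270, both in category 0. TCP genes, which end cell division at the leaf margin and are cut by miR319, had 2 or 3 reads at each of 4 loci, with 0 in category 0. GRAS, homeodomain-leucine zipper, GRF, MYB and NAC genes thus had sites in category 0, and TCP genes had none there.

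NF-YA proteins are the DNA-binding subunit of nuclear factor Y, and miR169 cuts their transcripts. The 15 sites of miR169 held 486 reads. osa-miR169e_R-2 had 217 reads (189 to 248) at LOC_Os03g48970, annotated as subunit A1, in category 0. The LOC_Os12g42400 and LOC_Os03g44540 sites of osa-miR169n, both annotated as subunit A10, had 12 and 7 reads and were also in category 0. The other 4 NF-YA loci had 1 to 3 reads. A locus without annotation, LOC_Os03g46770, had 215 reads, about as many as the main NF-YA site, but was in category 2 with a score of 4 and a deposited site p-value of 0.963. It is the site with most reads outside category 0. The 12 reads at LOC_Os12g42400 were also listed, at the same position, for osa-MIR1430-p5, which has the miR169 seed, and the NF-YA gene is thus counted under 2 family numbers.

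Phase-change families had 19 sites and 111 reads. The SPL factors cut by miR156 drive the change from juvenile to adult leaves, and AP2-like factors cut by miR172 hold back flowering. At the 7 SPL loci of miR156 the reads were 10 at LOC_Os02g04680 (category 1), 4 at LOC_Os06g45310 (category 0) and 1 to 3 elsewhere. In all, 2 of the 7 loci were in category 0. At the AP2.7-like locus LOC_Os05g03040, osa-miR172a had 35 reads in category 2, and at LOC_Os04g55560 osa-miR172b had 9 in category 0. The osa-miR172d-5p_R+1 site at the unannotated locus LOC_Os02g13100 had 30 reads in category 2. The miR529 and miR535 families had 2 sites each, all with 1 read.

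MADS-box genes of the AGL17 group are the grass targets of miR444 and act in nitrate response and tillering. The AGL16-like loci LOC_Os02g36924 and LOC_Os02g49840 had 18 and 13 reads in category 0, both with score 0. The family's largest site, however, lay in LOC_Os05g47560, the STN7 kinase gene of photosynthesis, with 26 reads in category 1 and a score of 4. In all miR444 had 16 sites and 98 reads. The PPR-like genes of RNA processing factor 2 at LOC_Os10g35436 and LOC_Os10g35240 had 19 and 6 reads for osa-miR1425-5p, both in category 0. The TPR-like locus LOC_Os10g35230 had 3, also in category 0. The phosphate carrier gene with an SPX domain, LOC_Os04g48390, had 3 reads for osa-miR827 in category 0. The osa-miR162a site in the unannotated LOC_Os03g02970 had 5 reads, in category 0. It is the only site of that category where the count along the target gives base 11, and gaps in the pairing were not followed. The remaining sites of well-known families were low, with at most 3 reads for osa-MIR2118e-p5_2ss12TA18CT, 2 for osa-miR1432-5p_R+1 in a calcium ATPase gene and 1 for osa-MIR1850-p5_1ss18CT.

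Outside these families 2 sites were in category 0. One is the osa-MIR1430-p5 site named above. The other is the osa-miR394 site in LOC_Os01g69940, a galactose oxidase/kelch repeat protein, with 11 reads and score 0. A kelch-repeat F-box protein of stem cell maintenance is the known Arabidopsis target of miR394. These 2 sites belong to 45 other named families, which together had 168 sites and 418 reads. Some had many sites with few reads: miR5079 had 19 sites with 71 reads, mostly in unannotated loci, and miR1851 had 18 with 101, of which 64 lay at LOC_Os11g06720. In 16 of the 45 families each site had 1 read.

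The 17 new candidates had 31 sites, with 0 in category 0, which allows a share of up to 11.2% (exact binomial interval). Their listed reads sum to 744. Divided among transcripts they sum to 237, of which 173 (72.8%) belong to PC-5p-111336_20. That candidate lists the same 167 reads (143 to 194) at each of LOC_Os04g16832, LOC_Os05g22718, LOC_Os08g15278 and LOC_Os09g19954. The 4 loci have no annotation, the score is 4, the category is 2, and each locus is left with 41.8 divided reads. These 668 listed reads are therefore 1 set of 167, not 4 sites of independent support. Next came PC-3p-68026_54 and PC-3p-85855_35 with 14 reads at the same position, 1515, of LOC_Os02g46510. All other candidate sites had 9 reads or fewer.

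Most sites in category 0 were kept under the name of a mature rice miRNA, of either strand. Of 126 sites kept under a mature rice miRNA name, 43 were in category 0 (34.1%, interval 25.9 to 43.1%), against 3 of 87 kept under a rice precursor fragment (3.45%, 0.717 to 9.75%), 1 of 50 under a mature miRNA of another plant and 0 of 32 under a precursor fragment of another plant. The name kept at a site is not always the most abundant sequence that fits there. In 25 of the 47 sites of category 0 a more abundant sequence was listed at the same position. The miR160 sites kept as osa-miR160a-5p (627 and 1361 CPM) were also listed for osa-miR160f-5p (4788 and 8076 CPM), and the miR166 sites kept as osa-miR166m_R-1 (674 and 965 CPM) for osa-miR166a-3p (19178 and 22867 CPM).

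Family level and site reads were related only loosely. Levels are the sum of a family's listed sequences in CPM over all listed miRNA reads, as the mean and SD of the 2 small RNA libraries, which held 33623.5 and 102513 listed reads. Across the 88 families and candidates Spearman's rho between level and summed site reads was 0.42 and Pearson's r of the log10 values 0.43, as a description with no test, since all points share 1 degradome library and families with more sequences can also list more sites. Number of sites alone gave a rho of 0.38. These values cover only the 88 of 205 listed families and candidates that had a site read at 0 h. Those without one, such as miR168, are left out. Without the 2 families farthest from the median level rho was 0.42 and r 0.45. Within the 26 well-known families rho was 0.41, and within the other 62 it was 0.23.

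The most abundant families were not those with most cut ends. miR894, at 148470 ± 29649 CPM (SD, n = 2), had 9 reads over 3 sites, and miR6300, at 118085 ± 28808 CPM, had 8 reads over 4 sites. The largest miR894 site was kept under a miRNA name of another plant. Whether that sequence is a miRNA in rice was not tested. miR156 (74049 ± 4379 CPM) and miR396 (65855 ± 6700 CPM) had 26 and 59 reads, although 8 of their 20 sites together were in category 0. miR160, at 10296 ± 3705 CPM, and miR408, at 15908 ± 4712 CPM, had 1629 and 1034. Per 1000 CPM of the family this is 158 reads for miR160, 65.0 for miR408, 24.0 for miR528 and 49.2 for miR169, against 0.896 for miR396 and 0.351 for miR156. At the low end miR398, with 643 ± 111 CPM, had 29 reads at 1 site, or 45.1 per 1000 CPM. miR168, which targets ARGONAUTE1 in other plants, stood at 52208 ± 10581 CPM with no site analysed here. Reads per 1000 CPM above that of miR160 were found outside the well-known families. Such values were 1463 for PC-5p-111336_20, whose 167 shared reads count 4 times, 380 for miR1851 and 233 for PC-3p-66728_56. None of these had a site in category 0. The miR169 value includes the 215 reads at LOC_Os03g46770, in category 2. Reads per CPM set 2 kinds of library against each other and are not an efficiency of cleavage.

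**Figure D4:**
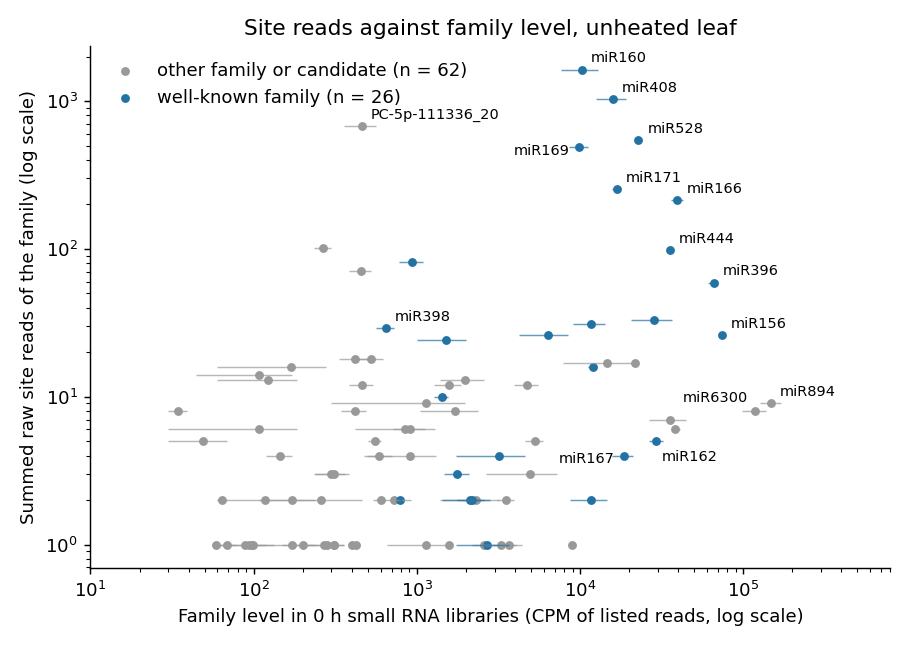
Summed raw site reads of each of the 88 families or candidates against the family level in the 0 h small RNA libraries (both log scales). Points are the mean of 2 libraries and bars join both values, with the 26 well-known families in blue. miR160 and miR408 lie highest at levels of 10296 and 15908 CPM, and miR894 and miR6300 lie farthest right with 9 and 8 reads.

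The 0 h sites were also looked up in the 2 heated libraries, each a single library. Of the 326 sites 164 had a read at 12 h, 165 at 24 h, 119 at both (36.5%, interval 31.3 to 42.0%) and 116 at neither. The share was higher for sites in category 0. Of the 47, 40 had reads in both libraries (85.1%, 71.7 to 93.8%) and 0 in neither, and 26 were again in category 0 at 12 h and 28 at 24 h. Of the 63 sites in the known target class 41 had reads in both (65.1%, 52.0 to 76.7%). Of the 158 sites with 1 read, 21 did (13.3%, 8.42 to 19.6%) and 85 were in neither. A site with 1 read at 0 h can miss in another library by counting alone. Likewise, sites in category 0 have more reads at 0 h, in part by construction. Of the 43 sites of any category with at least 10 reads, 39 had reads in both (90.7%, 77.9 to 97.4%).

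The largest sites differed in which of the 3 libraries had most reads, which compares these libraries and not the conditions. In the 0 h, 12 h and 24 h libraries the miR408 site at LOC_Os08g37670 had 1032, 158 and 162 reads, and the miR528 site at LOC_Os07g38290 had 505, 18 and 15. Scaled to depth these are 82.2, 14.3 and 12.5 RPM for miR408, and 40.2, 1.63 and 1.16 RPM for miR528. For both, the 0 h value lies above the intervals of the 12 h and 24 h libraries. Both sites were picked for having many reads at 0 h, which favours that order. The miR160 site at LOC_Os06g47150 had 892, 321 and 759 reads, lowest in the 12 h library, and so had the miR171 site at LOC_Os04g46860 (152, 59 and 88) and the miR166 site at LOC_Os10g33960 (90, 31 and 72). The miR169 site at LOC_Os03g48970 had its most reads at 24 h (217, 283 and 758), whereas the unannotated miR169 locus LOC_Os03g46770 had its most at 12 h (215, 415 and 147). The superoxide dismutase site of miR398 had 29, 47 and 16 reads, and its 0 h interval overlaps both others, while those of 12 h and 24 h do not overlap. Of the GRF sites, LOC_Os02g53690 had 18, 0 and 1 reads and LOC_Os06g02560 had 11, 0 and 1. The GRF sites with the next most reads at 0 h kept some reads. LOC_Os03g47140 had 8, 3 and 4, LOC_Os02g45570 had 6, 1 and 0, and LOC_Os04g51190 had 5, 4 and 2. Sites were selected for a read at 0 h, which by itself lowers the other libraries, so no sum over sites is compared between times.

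**Figure D5:**
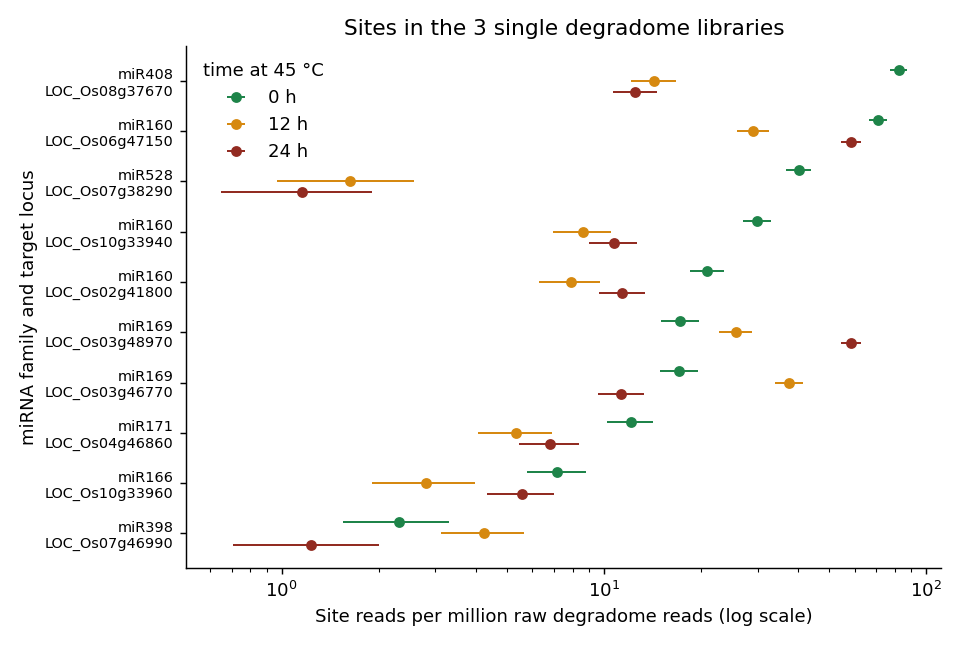
RPM of raw degradome reads (log scale) at 10 sites in the 3 single libraries, with exact Poisson 95% intervals of counting error. The sites of miR408 and miR528 are highest at 0 h (82.2 and 40.2 RPM), and the NF-YA site of miR169 at LOC_Os03g48970 is highest at 24 h.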

How the data were processed

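All values start from the tables the authors deposited. For each predicted site these give the raw count of degradome reads, an estimated count (the same reads divided among the transcripts they match), a signal called TPB (divided reads per library size), a score for the category (0 to 4), an alignment score and a p-value, per the file headers. The small RNA tables the authors deposited give estimated counts per mature sequence, because a read with several positions was divided, and a normalized signal. The site p-value the authors deposited depends on category and score, so it adds no independent evidence. No source used here names the mapper, target finder, miRNA release or genome build. Of the deposited tables, 7 were used, and 29 columns of sample values in them were not.

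Entries with a raw 0 h count above 0 were merged to 1 per family number (or candidate) and locus, keeping the most reads, then the lowest category and score. Family levels are CPM over the 483 distinct listed sequences. Intervals are exact (Clopper-Pearson for shares, Poisson for counts, 95%) and cover counting error only, and reads without molecular identifiers are not independent molecules. The target class was matched by keywords in the deposited annotation. Named are the site with most reads of each well-known family, the 10 sites with most reads, the sites of category 0 outside those families, and the 3 candidates with most reads; other loci of these families were named after their values were seen. Sites, families and keyword lists were chosen with earlier results of these data known. Counting and intervals were tested on simulated data. The locus names matched none of the annotation table at hand, which was not used. Python 3.11.15, pandas 2.3.3, numpy 2.4.6, scipy 1.17.1 and matplotlib 3.10.9 were used.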

Additional observations from a re-analysis of the deposited data

How the results depend on the processing

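The results come from 1 degradome library, so depth limits them: 1 read is 0.0797 RPM, and 158 of 326 sites rest on it. The number of sites, 326, became 168, 82 and 43 with at least 2, 5 and 10 reads, 128 with a score of at most 3, 503 per transcript model and 990 without merging. The share in category 0, 14.4%, became 28.0%, 50% and 58.1% with at least 2, 5 and 10 reads, 32.0% with a score of at most 3 and 28.6% without merging. It stayed at 14.4% when the lowest category was kept and was 15.0% with 1 site per set of equal divided reads. The share of reads at the 10 largest sites, 69.2%, became 73.5% with divided reads and 29.7% without merging. The authors' scaled signal must give the same 73.5%, since it is the divided reads scaled by library size. The share of sites in the known target class, 50.8%, became 64.9% and 80.6% with at least 5 and 10 reads, 84.4% in category 0, 82.7% in categories 0 and 1, and 84.5% with a score of at most 3; it was 53.2% with keywords reviewed after seeing the data. The rank correlation of level and site reads, 0.42, became 0.20 with category 0 sites alone (20 families) and 0.35 with the known target class alone (21 families). It ranged from 0.38 to 0.45 when either small RNA library was left out, and from 0.38 to 0.43 under the other 6 settings. The share of sites with reads at both 12 h and 24 h, 36.5%, became 58.3%, 82.9% and 90.7% with at least 2, 5 and 10 reads at 0 h, and 10.7% when 5 reads were required at 12 h and 24 h. Of 36 named sites, 10 moved beyond their counting interval when reads were divided among transcripts, and at 6 of these 10 the parts add up to the same reads within the locus. Chosen after seeing the data were 1 site per set, reviewed keywords, divided reads at single sites and in the rank correlation, and the rank correlation of the known target class alone. No paired analysis was possible because the results come from no test and there is 1 degradome library per time point.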

Other observations

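Family numbers and loci are not fully separate. At 11 loci, sites of more than 1 family or candidate were listed. At 2 of them the position was the same, LOC_Os12g42400 for miR169 and miR1430 and LOC_Os02g46510 for a pair of candidates. At 6 more the positions lay 6 to 14 bases apart. Most of these involve miR818 with miR5824 or miR5799. In LOC_Os05g07560, which has no annotation, the 3 families were listed between transcript positions 3624 and 3638 with 1 to 3 reads each. In LOC_Os12g08090, annotated as amino acid permease 2, the candidates PC-3p-55618_76 and PC-3p-66728_56 were listed at positions 1583 and 1589 with 9 and 8 reads. At the other 3 loci the positions lay over 20 bases apart.

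Some loci of 1 family listed equal reads. In 17 sets with 42 sites in all, the sites of a set had equal reads in all 3 libraries and equal divided reads. In 10 of these sets, with 23 sites, the divided parts over the loci of the set add up to the reads of a single site. In the other 7, all with 1 or 2 reads, they do not, and the equal values need not be shared reads. The largest set that adds up is the one of PC-5p-111336_20. The elongation factor Tu loci LOC_Os03g08010, LOC_Os03g08020 and LOC_Os03g08050 form another that adds up, with 5, 7 and 4 reads at 0, 12 and 24 h for osa-MIR169g-p3, a fragment of a miR169 precursor.

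Abundant families without a site analysed here include, after miR168, miR4995 at 20178 ± 6918 CPM (SD, n = 2), miR1862 at 9049 ± 493 CPM and miR1876 at 8522 ± 4561 CPM. miR6478 stood at 35697 ± 13091 CPM and had 7 reads over 6 sites, of which 5 had 1 read.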
